A study of Mus musculus with 6 samples.

Results

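Lysine acetylation of histones and other proteins is set by acetyltransferases (writers), removed by deacetylases (erasers) and bound by proteins with a bromodomain (readers). The mRNA levels of 51 mouse genes of this system were examined in macrophage cultures treated with an inhibitor of 1 writer, KAT8. The rule for choosing them goes by family and uses no measured value: 10 acetyltransferases, 11 subunits of the MSL and NSL complexes that hold KAT8, 11 zinc-dependent deacetylases, 7 sirtuins, 8 bromodomain proteins and 4 corepressor subunits. All 51 were found among the 34745 genes of the count table, and all 51 were among the 13815 genes with enough counts to be tested.

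By the labels, every library came from wild-type bone marrow-derived macrophages, primary cells grown out of bone marrow with the growth factor M-CSF at 20 ng/ml. Markers of other cell types in these cultures are given below. The tested cells were pretreated with the KAT8 inhibitor and then stimulated for 6 h with R848 at 100 ng/ml (3 libraries). Control cells received DMSO, a solvent, in place of the inhibitor and the same R848 stimulation (3 libraries). R848 (resiquimod) activates TLR7, an endosomal receptor for RNA, so both groups are stimulated cells, and unstimulated cells were not analysed here. Which compound was used, at what dose and for how long before R848 is not stated in the labels. Nothing there says whether the 3 replicates of a group were separate animals or cultures. The p-values therefore set the difference between groups only against the spread of these libraries, which could be technical.

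Acetyltransferases transfer the acetyl group of acetyl-CoA to lysine side chains, which on histone tails loosens chromatin and creates docking sites for bromodomains. Zinc-dependent histone deacetylases and the NAD-dependent sirtuins remove the group, often, for the zinc-dependent enzymes, within corepressor complexes built on NCOR, SIN3 or RCOR proteins. KAT8, also called MOF, acetylates histone H4 in the MSL complex and acts at gene promoters in the NSL complex. In macrophages, bromodomain proteins of the BET family and class I deacetylases are known for their roles at inflammatory gene promoters and enhancers.

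The sequence just upstream of a RefSeq gene start is shown for Kat8, for the MSL subunit Msl2 and for the NSL-associated Ogt. They were chosen because these 3 genes of the KAT8 complexes were all higher in inhibitor-treated cells, as given further on. Each of them has 2 windows listed, and the first was taken. Each run is the 250 bases before the start in the mouse build GRCm38.p6, read 5′ to 3′ on the gene's own strand, which is the plus strand in all 3, and is credited to RefSeq. Capitals mark the letters GCGTG, the core of the xenobiotic response element, and TGACNNNGC, the core of the antioxidant response element, on either strand.
Kat8, chr7:127912267-127912516: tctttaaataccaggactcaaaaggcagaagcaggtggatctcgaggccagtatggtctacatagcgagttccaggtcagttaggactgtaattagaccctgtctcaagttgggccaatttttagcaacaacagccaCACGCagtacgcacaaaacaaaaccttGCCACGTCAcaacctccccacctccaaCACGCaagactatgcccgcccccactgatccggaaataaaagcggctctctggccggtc
Msl2, chr9:101073804-101074053: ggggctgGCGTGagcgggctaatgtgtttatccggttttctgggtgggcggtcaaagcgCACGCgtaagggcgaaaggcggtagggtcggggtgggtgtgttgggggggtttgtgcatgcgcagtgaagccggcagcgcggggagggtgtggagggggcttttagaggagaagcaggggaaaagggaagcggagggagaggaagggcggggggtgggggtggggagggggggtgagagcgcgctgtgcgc
Ogt, chrX:101639801-101640050: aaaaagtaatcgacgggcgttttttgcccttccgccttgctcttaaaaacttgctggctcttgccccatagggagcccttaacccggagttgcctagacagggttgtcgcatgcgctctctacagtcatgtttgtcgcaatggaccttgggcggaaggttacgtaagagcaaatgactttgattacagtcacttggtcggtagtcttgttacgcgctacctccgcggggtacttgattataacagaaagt

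The Kat8 window held GCGTG and TGACNNNGC, the Msl2 window held GCGTG, and the Ogt window held neither. Windows of this kind were found for 46 of the 51 genes, all but Kat6a, Hdac1, Hdac3, Hdac10 and Brd8. Where a gene had more than 1 window listed, only the first was used. Some of these windows, such as those of Kat6b and Ncor1, lie inside the annotated span of the gene. Some hold exon sequence, and for Ep300 all 250 bases do. The letters GCGTG stood in 16 of the 46 (34.8%), against 28.2% of the windows of 27025 mouse genes, and TGACNNNGC in 5 (10.9%), against 10.1%. The GC box GGGGCGGGG stood in 9 windows (19.6% against 10.5% of all genes) and the ETS motif CCGGAAG in 7 (15.2% against 7.05%). The E-box CACGTG stood in 3 (6.52% against 6.05%), and the cyclic AMP response element TGACGTCA in none of the 46 (against 1.62%). All 6 motifs were searched on both strands, and CACGTG can share letters with a GCGTG match. The windows of the 46 genes had a median GC content of 62.6%, against 52.0% over all genes. A match is a description of letters, and no match says only that these letters are not in this window.

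The libraries held 25089320, 24223664 and 23037820 counts with the inhibitor, against 18441352, 24429778 and 23950178 with DMSO. Levels are given as CPM, counts brought to a common library total with TMM scaling (a correction for library composition), and 3 counts, the limit that a count of 0 allows, were worth 0.116 to 0.166 CPM in these libraries. All 8 macrophage markers passed the filter on low counts, and their summed level was 7562 to 7640 CPM with the inhibitor, against 11861 to 13535 CPM with DMSO, with 6 of the 8 called lower. The 9 markers of stromal cells summed to 2793 to 2990 CPM with the inhibitor, against 6076 to 6938 CPM with DMSO (7 called lower), and the 10 genes of the G2 and M phases to 168.2 to 192.9 CPM, against 430.9 to 481.2 CPM (10 called lower). Over all tested genes, 26.5% were called lower by the test described below. Endothelial markers summed to 13.1 to 13.7 CPM with the inhibitor, against 55.7 to 57.1 CPM with DMSO, and dendritic cell markers to 12.2 to 13.3 CPM, against 19.1 to 21.2 CPM. Of 3 endothelial markers tested, 2 were called lower, and of 3 dendritic cell markers tested, 1 was called higher and 2 lower. The summed levels of the neutrophil, B cell, T or NK cell, mast cell and erythroid lists were at most 2.93 CPM with the inhibitor and at most 7.16 CPM with DMSO, with S100a9, Ly6g, Elane, Ngp, Cd8a, Nkg7, Ncr1, Fcer1a, Hbb-bs and Hba-a1 at 0 in all 6 libraries. The part of these shifts in the results that follow was not tested, and in bulk RNA fewer cells of a type and less RNA per cell cannot be told apart.

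Of the 51 genes, 19 were called higher in inhibitor-treated cells and 8 lower, and 24 did not pass the test. Calls are by edgeR's quasi-likelihood test across all 13815 genes, at a Benjamini-Hochberg adjusted p under 0.05, and every adjusted p below is from that test unless another is named. Over all tested genes, 24.9% were called higher and 26.5% lower, 51.5% in all, so the share called among the 51 genes (52.9%) was near this background. The split by direction was 37.3% higher and 15.7% lower among the 51 genes, and their median log2 fold change, inhibitor over DMSO, was 0.14, against 0.01 over all genes. Most shifts were small: 45 of the 51 genes (88.2%) lay within 0.5 of 0 on the log2 scale, against 69.6% of all genes. The calls that also reached 1.5-fold were Hdac11, Sirt3, Brd2 and Sirt5, which were higher, and Hdac9, which was lower, while 8.09% of all genes were called higher and 13.5% lower at that size (21.6% in all).

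Scaling to library totals alone, in place of TMM, moved the median of all genes by 0.11 on the log2 scale. The calls among the 51 genes were then 26 higher and 3 lower, against 35.4% higher and 20.6% lower over all genes. All 19 higher calls were kept under that scaling, 5 of the 8 lower calls were lost, and no called gene changed sign. In every alternative in which they were tested, 12 of the 19 higher calls and 3 of the 8 lower calls held. The 12 were Kat8, Ep300, Msl2, Msl3, Kansl3, Wdr5, Ogt, Hdac11, Sirt3, Sirt5, Brd2 and Brd7, and the 3 were Hdac1, Hdac9 and Brd9. All inhibitor libraries lay above all DMSO libraries for 21 of the 51 genes and below them for 7, while 30.3% of all genes lay above and 30.3% below (60.6% in either direction).

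**Figure D1:**
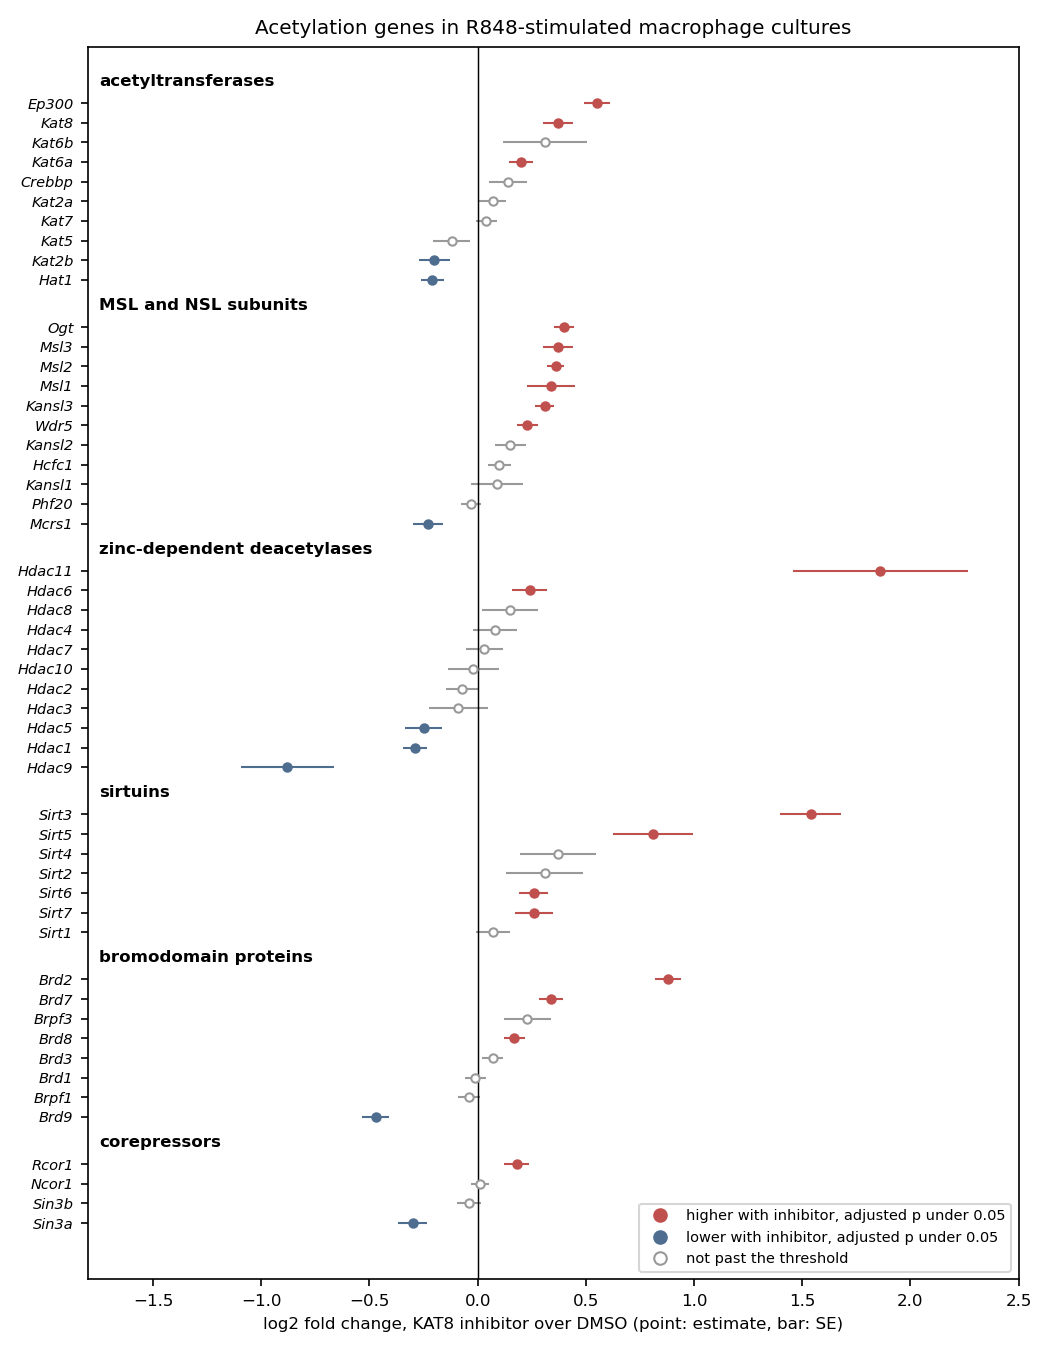
Log2 fold change, inhibitor over DMSO, of each of the 51 genes (x axis), arranged by class down the page, with bars of 1 standard error (SE) and colours for genes called higher, called lower or not called at an adjusted p under 0.05. Hdac11 (1.86) and Sirt3 (1.54) lie farthest to the right and Hdac9 (−0.88) farthest to the left, and 45 of the 51 points lie within 0.5 of 0.

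Per length of transcript the 51 genes spanned a wide range of levels. As RPKM (CPM divided by the exon length in kilobases), Brd2 had the highest level, 57.9 ± 2.90 with the inhibitor and 31.5 ± 2.15 with DMSO (SD, n = 3 each). Ogt, Sirt2, Hcfc1, Wdr5 and Brd7 followed in that order in both groups. Ogt stood at 30.0 RPKM with the inhibitor and 22.8 RPKM with DMSO. Sirt2, at 25.8 ± 5.94 RPKM with the inhibitor and 20.8 ± 4.26 RPKM with DMSO, did not differ from its neighbours in the order beyond the spread of its libraries. At the low end stood the deacetylases Hdac9, at 0.0726 RPKM with the inhibitor and 0.133 RPKM with DMSO, and Hdac11, at 0.375 RPKM with the inhibitor and 0.105 RPKM with DMSO. Sirt5 (0.585 RPKM with the inhibitor and 0.334 RPKM with DMSO) and Sirt3 (1.51 RPKM with the inhibitor and 0.520 RPKM with DMSO) were also low. Thus 4 of the 5 genes that changed at least 1.5-fold were expressed at low levels, and the other, Brd2, at the highest.

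**Figure D2:**
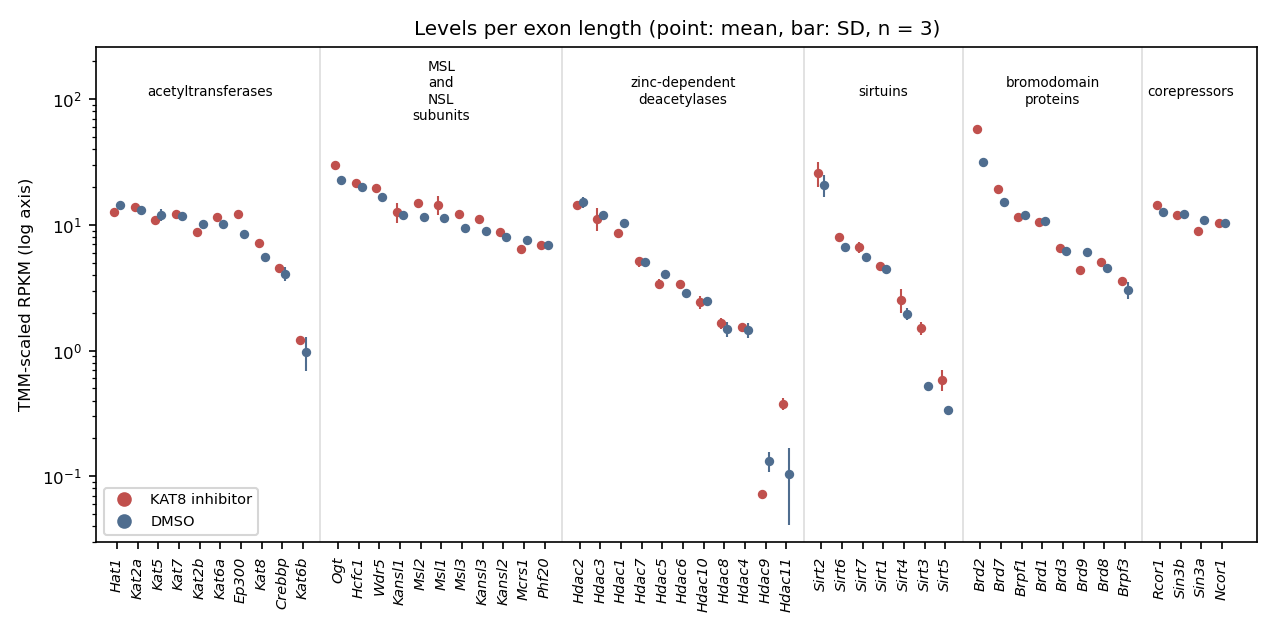
Mean RPKM (log axis) of each of the 51 genes in inhibitor-treated and DMSO-treated cells, with SD bars over 3 libraries a group, arranged by class and by level in DMSO. Brd2 (57.9 with the inhibitor, 31.5 with DMSO) is the highest and Hdac9 and Hdac11 are the lowest.

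Among the 10 acetyltransferases, Ep300, Kat8 and Kat6a were called higher with the inhibitor, Hat1 and Kat2b lower, and 5 did not pass the test; their median log2 fold change was 0.11. The mRNA of the inhibited enzyme itself was raised: Kat8 (ENSMUSG00000030801, chr7:127912516-127925837, plus strand) had 21.1, 20.8 and 20.4 CPM in the inhibitor libraries, against 15.5, 16.9 and 15.8 CPM in the DMSO libraries. These rest on 547, 521 and 491 counts with the inhibitor and 280, 391 and 363 with DMSO. Every inhibitor library stood above every DMSO library. The log2 fold change was 0.37 ± 0.0686 (SE; adjusted p = 0.00244), and the adjusted p stayed between 0.00428 and 0.0115 when each library was left out. An inhibitor acts on the protein, so the Kat8 mRNA does not check the labels.

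Ep300 (ENSMUSG00000055024, chr15:81585351-81652077, plus strand) encodes p300, a transcriptional coactivator that acetylates histone H3 at enhancers. It had 164.8, 186.3 and 176.2 CPM with the inhibitor, against 126.5, 113.4 and 121.2 CPM with DMSO. The lowest inhibitor library was well above the highest DMSO library, and the mean was 1.46-fold higher (log2 fold change 0.55 ± 0.0604, adjusted p = 0.000148). Its close relative Crebbp, which encodes CBP, did not pass the test, with a log2 fold change of 0.14 (adjusted p = 0.208), and its libraries overlapped between the groups. Kat6a, a MYST-family enzyme for histone H3 like its relative Kat6b, averaged 106.8 ± 0.379 CPM with the inhibitor and 93.0 ± 6.14 CPM with DMSO (log2 fold change 0.20, adjusted p = 0.0147). Kat6b stood at a log2 fold change of 0.31, but its DMSO libraries ranged from 11.0 to 20.7 CPM and it did not pass the test (adjusted p = 0.209).

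Hat1, which acetylates newly made histone H4, averaged 36.2 ± 0.236 CPM with the inhibitor and 41.8 ± 1.35 CPM with DMSO (log2 fold change −0.21, adjusted p = 0.0127). This call was lost under library totals alone (log2 fold change −0.10, adjusted p = 0.16). Kat2b, which encodes PCAF, was a borderline call whose groups overlapped: it had 41.4, 41.6 and 45.0 CPM with the inhibitor, against 51.8, 44.5 and 50.9 CPM with DMSO (log2 fold change −0.20, adjusted p = 0.0485). It was lost without DMSO replicate 1, DMSO replicate 3, inhibitor replicate 1 or inhibitor replicate 2 (adjusted p 0.113 to 0.138). It was also lost under library totals alone (log2 fold change −0.09, adjusted p = 0.36), with no filter on low counts and in DESeq2 (adjusted p = 0.0501). Its relative Kat2a, which encodes GCN5, did not pass the test (log2 fold change 0.07), nor did Kat7, a histone H3 and H4 acetyltransferase of the MYST family (0.04). Both were called higher under library totals alone (adjusted p = 0.0474 for Kat2a and 0.031 for Kat7). Kat5, which encodes TIP60, stood at −0.12 and was not called (adjusted p = 0.283), although it passed without DMSO replicate 1 (adjusted p = 0.0420).

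All 3 MSL subunits were called higher with the inhibitor, as were 24.9% of all tested genes, and their median log2 fold change was 0.36. Of the 8 NSL subunits and associated proteins, Kansl3, Wdr5 and Ogt were called higher, Mcrs1 was called lower and 4 did not pass the test, with a median of 0.12. Msl2 (ENSMUSG00000066415, chr9:101074101-101104800, plus strand), whose product is a ubiquitin ligase of the MSL complex, had 83.3, 82.7 and 83.8 CPM with the inhibitor, against 64.9, 64.3 and 65.4 CPM with DMSO. The libraries of each group lay close together and far from the other group (log2 fold change 0.36 ± 0.0404, adjusted p = 0.000160). Msl3, the chromodomain subunit, had 33.1, 34.8 and 36.8 CPM with the inhibitor, against 27.3, 28.2 and 25.3 CPM with DMSO (log2 fold change 0.37, adjusted p = 0.00264). Msl1, the scaffold of the complex, had 94.8, 68.9 and 72.6 CPM with the inhibitor, against 62.4, 61.4 and 62.8 CPM with DMSO, so inhibitor replicate 1 stood apart. Its call (log2 fold change 0.34, adjusted p = 0.0309) was lost without DMSO replicate 1, 2 or 3 (adjusted p 0.0697 to 0.0782).

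Ogt (ENSMUSG00000034160, chrX:101640060-101684351, plus strand) encodes the enzyme that adds O-linked N-acetylglucosamine to nuclear and cytosolic proteins. It had 236.0, 243.7 and 244.9 CPM with the inhibitor, against 193.9, 176.9 and 179.3 CPM with DMSO, with no overlap between the groups (log2 fold change 0.40 ± 0.0473, adjusted p = 0.000221). Kansl3 averaged 75.3 ± 2.01 CPM with the inhibitor and 60.6 ± 0.633 CPM with DMSO (log2 fold change 0.31, adjusted p = 0.000570). Wdr5, a scaffold shared with histone H3 methyltransferase complexes, averaged 70.5 ± 1.66 CPM with the inhibitor and 60.0 ± 2.33 CPM with DMSO (0.23, adjusted p = 0.00462). Mcrs1 went the other way, at 22.5 ± 0.833 CPM with the inhibitor and 26.3 ± 1.49 CPM with DMSO (log2 fold change −0.23, adjusted p = 0.0248). That call was lost without DMSO replicate 2, inhibitor replicate 1 or inhibitor replicate 2 (adjusted p 0.0681 to 0.0833), under library totals alone and with the replicate number as a block.

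The scaffold gene Kansl1 did not pass the test (log2 fold change 0.09, adjusted p = 0.585). It had 97.8, 68.8 and 93.8 CPM with the inhibitor, against 87.0, 78.8 and 79.8 CPM with DMSO, so inhibitor replicate 2 was the lowest library of all, and without it Kansl1 was called higher (adjusted p = 0.0232). Kansl2 stood at a log2 fold change of 0.15 (adjusted p = 0.122), Phf20, which reads methylated lysine, at −0.03, and the transcriptional coregulator Hcfc1 at 0.10 (adjusted p = 0.147). Kansl2 passed under library totals alone (adjusted p = 0.0125). Hcfc1 passed without DMSO replicate 1 (adjusted p = 0.0126) and under library totals alone (adjusted p = 0.0184). It also passed after removal of GC content and exon length trends (adjusted p = 0.0448).

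**Figure D3:**
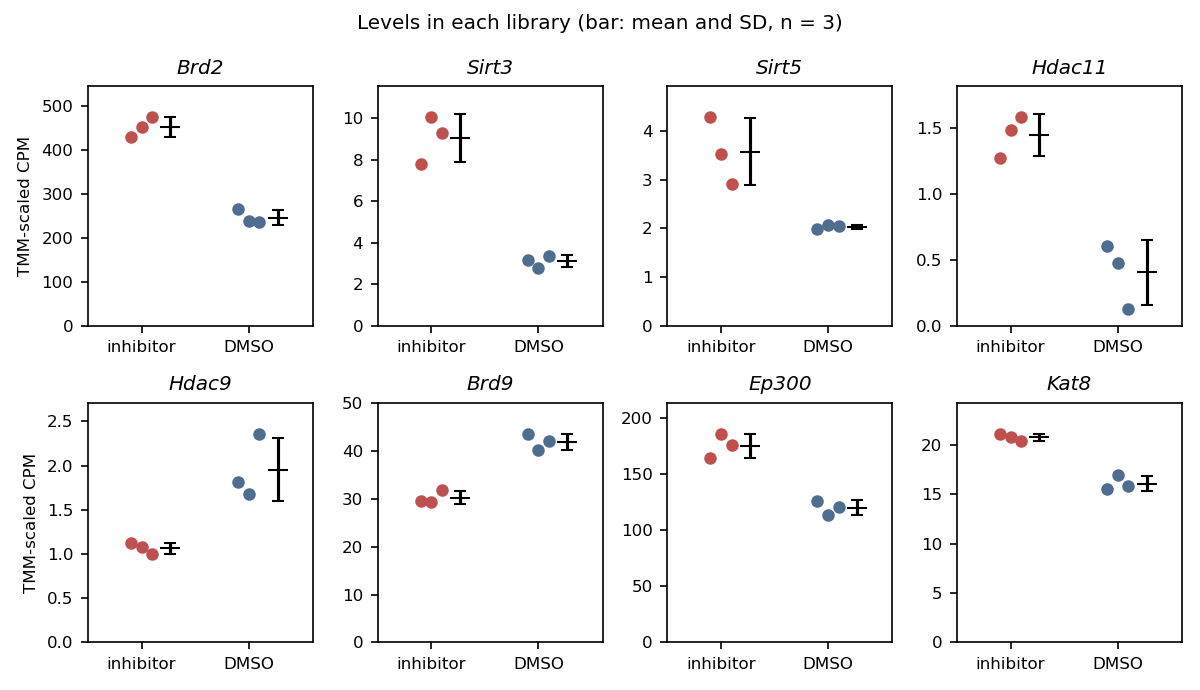
TMM-scaled CPM of 8 genes in each of the 6 libraries, inhibitor left of DMSO in each panel, with a point per library and a bar for mean and SD (n = 3). In every panel the inhibitor and DMSO points do not overlap: Hdac9 and Brd9 are lower with the inhibitor, and Brd2, Sirt3, Sirt5, Hdac11, Ep300 and Kat8 are higher. All 8 panels show called genes, and the groups did not overlap for 60.6% of all tested genes.

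The 11 zinc-dependent deacetylases moved in both directions: Hdac6 and Hdac11 were called higher with the inhibitor, Hdac1, Hdac5 and Hdac9 lower, and 6 did not pass the test, with a median log2 fold change of −0.02. In class I, Hdac1, a catalytic subunit of the NuRD, SIN3 and CoREST complexes, had 30.0, 29.0 and 29.2 CPM with the inhibitor, against 36.7, 35.9 and 35.4 CPM with DMSO. The groups did not overlap (log2 fold change −0.29 ± 0.0551, adjusted p = 0.00269). Its partner in the same complexes, Hdac2, stood at −0.07, the NCOR-bound Hdac3 at −0.09 and Hdac8 at 0.15, and these did not pass the test. Inhibitor replicate 1 had 34.6 CPM of Hdac3, while the other inhibitor libraries had 50.5 and 51.3 CPM, against 46.9 to 50.3 CPM with DMSO.

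In class IIa, whose members act mainly as recruiters of corepressors, Hdac9 had 1.12, 1.08 and 0.996 CPM with the inhibitor, against 1.82, 1.68 and 2.36 CPM with DMSO. These are 29, 27 and 24 counts with the inhibitor and 33, 39 and 54 with DMSO, a low level with groups that do not overlap (log2 fold change −0.88 ± 0.214, adjusted p = 0.00945). Hdac5 averaged 30.0 ± 2.84 CPM with the inhibitor and 35.7 ± 2.23 CPM with DMSO (−0.25, adjusted p = 0.0351). The Hdac5 call was lost without DMSO replicate 2 or 3 or inhibitor replicate 1 or 3 (adjusted p 0.0863 to 0.109), under library totals alone (adjusted p = 0.156) and after removal of GC content and exon length trends (log2 fold change −0.16, adjusted p = 0.218). Hdac4 and Hdac7 stood at log2 fold changes of 0.08 and 0.03 and were not called.

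Hdac11 (ENSMUSG00000034245, chr6:91156665-91174692, plus strand) is the only class IV enzyme and is known for removing long-chain acyl groups and for a link to the cytokine gene Il10. It had 1.27, 1.48 and 1.58 CPM with the inhibitor, against 0.608, 0.475 and 0.131 CPM with DMSO. The counts were 33, 37 and 38 with the inhibitor and 11, 11 and 3 with DMSO, so the lowest DMSO library was at the level of the 3 counts that a count of 0 allows. Hdac11 passed the filter on low counts only through the inhibitor libraries, the group in which it is higher. The groups did not overlap, and the log2 fold change was 1.86 ± 0.404 (3.63-fold, adjusted p = 0.00525). It was the largest of the 51 genes, but without DMSO replicate 3 it was 1.42, below the 1.6 of Sirt3 in the same fit. Its exons overlap those of Gm14573 and Gm44002 over 17.9% of their length, and both of these were at 0 counts. Hdac6, a mainly cytoplasmic class IIb enzyme for tubulin, averaged 19.7 ± 0.793 CPM with the inhibitor and 16.7 ± 1.24 CPM with DMSO (log2 fold change 0.24, adjusted p = 0.0356). The Hdac6 call was lost without DMSO replicate 2 or 3 or any of the inhibitor replicates 1, 2 and 3 (adjusted p 0.0568 to 0.115), in DESeq2 (adjusted p = 0.0746) and with the replicate number as a block (adjusted p = 0.06). Hdac10, a polyamine deacetylase of the same class, stood at −0.02.

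Of the 7 sirtuins, Sirt3, Sirt5, Sirt6 and Sirt7 were called higher with the inhibitor, none was called lower and 3 did not pass the test, with a median log2 fold change of 0.31. Over all tested genes, 24.9% were called higher and 26.5% lower. Sirt3 (ENSMUSG00000025486, chr7:140863666-140882309, minus strand), the main deacetylase of the mitochondrial matrix, had 7.78, 10.03 and 9.26 CPM with the inhibitor, against 3.15, 2.80 and 3.36 CPM with DMSO. These rest on 202, 251 and 223 counts with the inhibitor and 57, 65 and 77 with DMSO. The lowest inhibitor library was far above the highest DMSO library, and the log2 fold change was 1.54 ± 0.141 (2.90-fold, adjusted p = 5.18e-05). Exons of Psmd13 and Ric8a on the opposite strand overlap 12.7% of the Sirt3 exon length, and whether counting used strand is not given. Both neighbours were also called higher, by less on the log2 scale (log2 fold change 0.20, adjusted p = 0.0169 for Psmd13 and 0.31, adjusted p = 0.00137 for Ric8a). Their levels were far above that of Sirt3. Psmd13 was at 104.9 CPM with the inhibitor and 91.6 CPM with DMSO, and Ric8a at 73.3 CPM with the inhibitor and 59.1 CPM with DMSO. The part of these neighbours in the Sirt3 value was not tested.

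Sirt5, the mitochondrial enzyme that removes succinyl and malonyl groups, had 4.28, 3.52 and 2.91 CPM with the inhibitor, against 1.99, 2.07 and 2.05 CPM with DMSO. The inhibitor libraries were spread more widely than the DMSO libraries but all lay above them (log2 fold change 0.81 ± 0.183, 1.75-fold, adjusted p = 0.00660). The remaining mitochondrial sirtuin, Sirt4, stood at 0.37 and was not called (adjusted p = 0.108). It passed without inhibitor replicate 3 (adjusted p = 0.0494) and under library totals alone (adjusted p = 0.0463). Sirt6, a chromatin-bound deacetylase of histone H3, averaged 22.2 ± 0.377 CPM with the inhibitor and 18.5 ± 0.819 CPM with DMSO (log2 fold change 0.26, adjusted p = 0.0107). The nucleolar Sirt7 averaged 34.2 ± 3.54 CPM with the inhibitor and 28.5 ± 1.72 CPM with DMSO (0.26, adjusted p = 0.0386), and this call was lost without DMSO replicate 1, 2 or 3 or inhibitor replicate 1 or 2 (adjusted p 0.0634 to 0.123) and with the replicate number as a block (adjusted p = 0.0584). Sirt1, the nuclear enzyme that deacetylates p53 and NF-κB, stood at 0.07. The largely cytoplasmic Sirt2 stood at 0.31 with libraries of 112.7, 164.3 and 112.4 CPM with the inhibitor, against 129.1, 95.5 and 89.1 CPM with DMSO. Its groups overlapped and it was not called (adjusted p = 0.175), but it passed without DMSO replicate 1 (adjusted p = 0.0478).

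Among the 8 bromodomain proteins, Brd2, Brd7 and Brd8 were called higher with the inhibitor, Brd9 was called lower and 4 did not pass the test, with a median log2 fold change of 0.12. Brd2 (ENSMUSG00000024335, chr17:34112023-34122634, minus strand), a BET-family reader of acetylated histone H4, had 429.8, 453.2 and 475.3 CPM with the inhibitor, against 266.3, 238.5 and 235.9 CPM with DMSO. Every inhibitor library was far above every DMSO library, and the log2 fold change was 0.88 ± 0.0606 (1.83-fold, adjusted p = 1.16e-05), the smallest adjusted p of the 51 genes. Exons of other genes, H2-DMa among them, overlap 9.78% of its exon length; H2-DMa was at 11.0 CPM with the inhibitor and 7.70 CPM with DMSO. The other BET gene, Brd3, had 47.8, 47.6 and 48.0 CPM with the inhibitor, against 46.3, 44.6 and 45.9 CPM with DMSO. The groups did not overlap, but the log2 fold change of 0.07 did not pass the test (adjusted p = 0.271). Under library totals alone Brd3 was called higher (adjusted p = 0.0205).

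Brd7 and Brd9 encode bromodomain subunits of different SWI/SNF remodelling complexes, Brd7 of PBAF and Brd9 of the non-canonical BAF complex, and they were called in opposite directions. Brd7 had 100.5, 97.6 and 105.5 CPM with the inhibitor, against 75.6, 80.1 and 84.3 CPM with DMSO (log2 fold change 0.34 ± 0.0547, adjusted p = 0.00116). Brd9 (ENSMUSG00000057649, chr13:73937811-73960895, plus strand) had 29.6, 29.4 and 31.8 CPM with the inhibitor, against 43.6, 40.2 and 42.0 CPM with DMSO. Its groups did not overlap either, and the log2 fold change was −0.47 ± 0.0625 (adjusted p = 0.000413). Brd8, a subunit of the TIP60 complex, averaged 54.0 ± 1.26 CPM with the inhibitor and 48.2 ± 0.800 CPM with DMSO (0.17, adjusted p = 0.0206), a call lost without DMSO replicate 3, inhibitor replicate 1 or inhibitor replicate 3 (adjusted p 0.0681 to 0.0735). It was also lost in DESeq2 (adjusted p = 0.0643) and after removal of GC content and exon length trends (log2 fold change 0.12, adjusted p = 0.0586). Brd1, Brpf1 and Brpf3, the scaffolds of MYST acetyltransferase complexes, stood at −0.01, −0.04 and 0.23 and were not called. Brpf3 (adjusted p = 0.109) passed without DMSO replicate 1 (adjusted p = 0.0144) and under library totals alone (adjusted p = 0.0358). It also passed after removal of GC content and exon length trends (adjusted p = 0.022).

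Of the 4 corepressor subunits, Sin3a was called lower with the inhibitor, Rcor1 higher, and Ncor1 (log2 fold change 0.01) and Sin3b (−0.04) did not pass the test. Sin3a, the scaffold of the SIN3 deacetylase complex, had 44.0, 48.9 and 51.6 CPM with the inhibitor, against 59.1, 57.6 and 60.6 CPM with DMSO. The groups did not overlap (log2 fold change −0.30 ± 0.0666, adjusted p = 0.00634), but the call was lost under library totals alone (adjusted p = 0.0515). Rcor1, the scaffold of the CoREST complex, had 82.6, 82.1 and 79.4 CPM with the inhibitor, against 78.0, 67.8 and 70.4 CPM with DMSO. Its inhibitor libraries lay just above the highest DMSO library (log2 fold change 0.18 ± 0.0589, adjusted p = 0.0355). The Rcor1 call was lost without DMSO replicate 2 or 3 or inhibitor replicate 1, 2 or 3 (adjusted p 0.0571 to 0.108), in DESeq2 (adjusted p = 0.0522) and after removal of GC content and exon length trends (adjusted p = 0.188).

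Close relatives within the system were set against each other within each library as ratios of counts per exon length, which need no scaling between libraries. The 9 pairs were chosen after the values were seen. The log2 ratio of Brd2 to Brd3 averaged 3.15 with the inhibitor and 2.34 with DMSO, a linear ratio of 8.87 with the inhibitor and 5.07 with DMSO. Brd7 over Brd9 stood at a linear ratio of 4.43 with the inhibitor and 2.53 with DMSO, and Ep300 over Crebbp at 2.73 with the inhibitor and 2.08 with DMSO. Hdac1 over Hdac2 was lower with the inhibitor, at a log2 ratio of −0.76, against −0.53 with DMSO, as was Sin3a over Sin3b, at −0.42 with the inhibitor and −0.16 with DMSO. For these 5 pairs and for Hdac6 over Hdac10 (0.48 with the inhibitor and 0.22 with DMSO) the groups did not overlap, which gives p = 0.1 in a two-sided exact permutation test, the smallest that 3 libraries against 3 allow (adjusted p = 0.15 over the 9 pairs). The other 3 pairs, Kat2a over Kat2b, Hdac4 over Hdac5 and Kat6a over Kat6b, overlapped between the groups (exact permutation p = 0.2, 0.2 and 1). Such a design cannot reach a p under 0.05. For single genes, the groups did not overlap in 60.6% of all tested genes, and the share among other pairs was not measured.

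**Figure D4:**
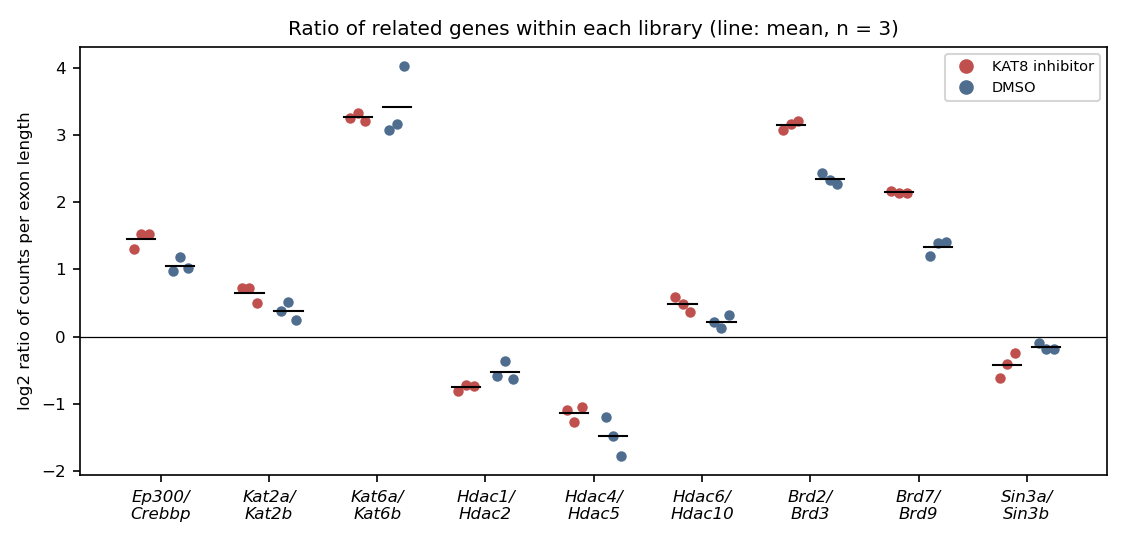
Log2 ratio of counts per exon length within each library for 9 pairs of related genes, with a point per library and a line at the mean (n = 3), inhibitor left of DMSO. The points of the groups separate for 6 pairs, among them Brd2 over Brd3 (mean 3.15 with the inhibitor, 2.34 with DMSO) and Brd7 over Brd9 (2.15 with the inhibitor, 1.34 with DMSO). The pairs were chosen after the values were seen.

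A list of 120 other genes of acetylation was written from their roles, and 118 of them were tested. Of these 24 were called higher with the inhibitor and 23 lower (39.8%), a smaller share than the 51.5% over all genes. Among 7 genes of acetyl-CoA supply, 1 was called higher and 4 lower. They include Acly, which makes acetyl-CoA from citrate, at 297.1 ± 3.89 CPM with the inhibitor and 483.4 ± 12.9 CPM with DMSO (log2 fold change −0.70, adjusted p = 3.76e-06), and the pyruvate dehydrogenase subunit Pdha1 (−0.29, adjusted p = 0.000411). Of 27 partners of acetyltransferases, 6 were higher and 4 lower. Epc1, a scaffold of the TIP60 complex, averaged 49.0 ± 1.38 CPM with the inhibitor and 30.0 ± 0.542 CPM with DMSO (0.71, adjusted p = 1.90e-05). Jade2, a scaffold of the HBO1 complex, averaged 32.5 ± 1.31 CPM with the inhibitor and 58.0 ± 3.18 CPM with DMSO (−0.84, adjusted p = 1.69e-05).

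Of 15 other acetyltransferases, 5 were higher and 2 lower, led by the circadian regulator Clock, at 115.3 ± 5.91 CPM with the inhibitor and 60.0 ± 2.39 CPM with DMSO (log2 fold change 0.94, adjusted p = 4.50e-06), and by Gtf3c4, a subunit of the RNA polymerase III factor TFIIIC (0.30, adjusted p = 0.000612). Of 38 partners of deacetylases, 6 were higher and 8 lower, among them the NuRD subunit Mbd3, which was lower (−0.46, adjusted p = 0.000338). Of 33 other readers, 31 were tested, 6 were higher and 5 lower. The YEATS-domain reader Mllt3 averaged 14.5 ± 0.569 CPM with the inhibitor and 6.00 ± 0.952 CPM with DMSO (1.28, adjusted p = 6.92e-05), and the SWI/SNF ATPase Smarca2 stood at 0.74 (adjusted p = 3.81e-05).

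Sequence features of the 51 genes, which the choice by family did not use, are given without a test. Their median transcript GC content was 51.3%, against 49.5% over all tested genes, and their median exon length was 5684 bases, against 4332. Median GC content was 51.1% for the 19 genes called higher, 48.4% for the 8 called lower and 52.1% for the 24 not called. Over all tested genes the median log2 fold change ran from 0.049 in the tenth of lowest GC content to −0.05 in the tenth of highest. Of the 51 genes, 5 lie on the X chromosome, as do 457 of the 13815 tested genes. Of the 5, Msl3, Ogt and Hdac6 were called higher, while 24.9% of all tested genes, on any chromosome, were. The share called among the 457 tested genes of the X chromosome was not measured. The Hdac6 call was lost in several alternatives, as given above. Exons of other genes overlap those of 22 of the 51, among them Hdac7 with Slc48a1, whose own log2 fold change was 0.94, and Kat5 with Rnaseh2c.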

How the data were processed

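The authors deposited unnormalized read counts in 1 table, with Ensembl genes as rows and the 6 libraries as columns. Per the submitters' processing notes, the tools were HISAT2, StringTie 1.3.0 and edgeR and the build was mm10. Not given in the sources used here are what each did, the read counter, the annotation release, the use of strand and the handling of multiply matching reads, and the values of overlapping genes and close paralogs depend on them.

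The test was edgeR's (4.0.16, under R 4.3.3) quasi-likelihood F test (TMM scaling, filterByExpr with a minimum count of 10, pretreatment as the only factor), with Benjamini-Hochberg adjustment over the 13815 genes kept, which held 99.9% of counts. SE is the size of the log2 fold change divided by the root of F. Gene symbols, coordinates (1-based) and exon lengths are from the GENCODE annotation of the same build, which matched 34344 of 34745 identifiers. Within groups, the chi-square per degree of freedom between libraries was 9.25 to 14.3, and between groups 85.7 to 103, so none repeats another. Limits of 3 counts cover counting error only. The procedure was tested on simulated data.

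The 51 genes, the other lists and the tests were chosen with earlier results of these data known. Values of every library are given for Kat8, the 2 genes of each class with the smallest p and called genes changed at least 1.5-fold; from each other list the 2 genes with the smallest p are named, and some genes that the rule takes are not reported here. Library values of other genes, and overlapping neighbours, were chosen after their values were seen. Alternatives were DESeq2 1.42.0, size factors by median of ratios, no filter on low counts, a filter at a mean of 5 CPM, scaling to library totals alone, the replicate number as a block, removal of GC content and exon length trends, a stricter adjusted p of 0.01, and each library left out in turn. The calls for the other genes of the machinery under these were added after seeing the data.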

Additional observations from a re-analysis of the deposited data

How the results depend on the processing

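The median log2 fold change of the 51 genes was 0.14, 0.25 under library totals alone and 0.09 to 0.17 when each library was left out. Kat8 kept its direction and call in all 14 alternatives. Of the values of the other 12 named genes, each under up to 14 alternatives, 156 kept direction and call and 9 kept direction only, 8 of them for Rcor1 and 1 for Sin3a; none reversed. Library totals alone gave 5 acetyltransferases and 5 bromodomain proteins called higher, and lower calls of 3 for the 51 genes and 0 each for acetyltransferases, MSL and NSL subunits and corepressors; the other genes of the machinery had 41 higher and 14 lower, the set having been added after seeing the data. At an adjusted p under 0.01, 2257 of all genes were higher; 12 of the 51 were higher and 4 lower, with 1 zinc-dependent deacetylase, 2 sirtuins, 0 corepressors and 15 other genes of the machinery higher, and 0 acetyltransferases and 0 MSL and NSL subunits lower. Zinc-dependent deacetylases called higher numbered 1 under a mean of at least 5 CPM, DESeq2 and the replicate block; corepressors called higher numbered 0 in DESeq2 and after GC content and exon length trends were removed; acetyltransferases called lower numbered 1 with no filter and in DESeq2. Leaving out each library gave 14 to 20 of the 51 higher and 5 to 8 lower, the 5 without inhibitor replicate 1. Within classes it gave 1 to 2 acetyltransferases lower, 1 to 2 zinc-dependent deacetylases, 0 to 1 corepressors and 3 to 5 sirtuins higher, 0 to 1 MSL and NSL subunits and 2 to 3 zinc-dependent deacetylases lower, and 2 to 4 bromodomain proteins higher. The cause of these changes was not tested.

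Same-numbered libraries did not deviate together (correlations −0.0337 to 0.0243, and only inhibitor replicate 3 correlated best with its own number), so the numbers were not taken as pairs. The replicate block gave 17 of the 51 genes higher and 7 lower, 0 MSL and NSL subunits lower, and 3215 higher and 3510 lower over all genes. Depth limits Hdac9, Hdac11 and Sirt5, which a mean of at least 5 CPM leaves untested.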
